A study of Homo sapiens with 18 samples.

Results

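The genes described here build and run the DNA replication machinery: 51 genes of the replication origin and fork, picked by gene symbol with no threshold on measured values, although the list was drawn up with earlier results of these data known. They were represented by 52 of the 21111 probe rows of a targeted transcriptome (51 of 19289 gene symbols), since ORC4 had a pair of probes and each other gene had 1. The study silenced ASAP1, an Arf GTPase-activating protein, in 3 triple-negative breast cancer (TNBC) cell lines, BT549, Hs578T and SUM149PT, all described by the study as carrying amplified ASAP1. Each line was transfected at 50 nM with siASAP1, a SMARTpool of siRNAs against ASAP1, or with siCtrl, a pool of kinase siRNAs used as the negative control, and RNA was taken 72 h later. Each of the 6 groups held 3 libraries, described as biological triplicates, which gave 18 libraries in all. Established lines were used without further alleles or agents, and the silencing was transient.

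Replication begins when the origin recognition complex (ORC1 to ORC6), with CDC6 and CDT1, loads the ring of MCM2 to MCM7 onto DNA, a step that geminin (GMNN) blocks by holding CDT1. The kinase CDC7 with its activator DBF4 then fires the origin, CDC45 and the GINS complex join the MCM ring to form the active helicase, and MCM10 takes part in its activation. Polymerase alpha with primase starts each strand, the clamp PCNA is loaded by the RFC complex, and polymerases epsilon and delta extend the leading and lagging strands, while RPA coats single-stranded DNA, TIMELESS, TIPIN, CLSPN and WDHD1 hold the fork together and CHAF1A with CHAF1B places histones behind it. Many of these genes are transcribed late in G1 phase under E2F control, and they are widely used as markers of proliferating cells.

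The libraries were made by TempO-Seq, in which a pair of detector oligos that meet on an RNA is ligated, amplified and counted. Values are given as normalized counts (reads divided by the size factor of the library), and a Log2 FC is the difference of mean log2(normalized count + 1) between siASAP1 and siCtrl. Depth ran from 4.63 to 12.5 M reads a library, with a median of 6.63 M. Probes differ in how well they capture their RNA, so levels are compared within a gene and not between genes, and in bulk RNA fewer cells in S phase and less RNA per cell cannot be told apart. The epithelial marker EPCAM lay between 18650.2 and 36679 normalized counts in SUM149PT and was at most 77.8 in Hs578T and at most 2.52 in BT549, while the mesenchymal marker VIM (its stronger probe) was between 791 and 2965 in SUM149PT and at least 27346 in the other lines. CDH1 (87.9 to 263), KRT17 (647 to 5514) and KRT5 (0 to 64.1) were also read in SUM149PT, with CDH1 and KRT5 at 0 and KRT17 at most 1.13 in the other lines. KRT14 was at most 12.8 in every library. Of the other mesenchymal markers, FN1 (its strongest probe) was between 753 and 5346 in SUM149PT and at least 6137 in the other lines, and ZEB1 was at most 2.53. CDH2 went against this order between SUM149PT (1434 to 2325) and BT549 (253 to 691), and was highest in Hs578T (3222 to 5543). CD3E and CDH5 were at 0, PTPRC was at most 2.67 and PECAM1 was at most 103.

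ASAP1 itself had 1107, 966 and 944 normalized counts after siCtrl and 367, 729.7 and 783 after siASAP1 in BT549. In Hs578T it had 1641, 1414 and 2697 after siCtrl and 782, 825 and 1261 after siASAP1. The SUM149PT values were 1087, 189 and 1314 after siCtrl and 282, 468 and 184 after siASAP1. The library labelled siCtrl 2 of SUM149PT therefore had less ASAP1 than 2 of the 3 siASAP1 libraries of that line, and it also had the lowest mean correlation with its own group (r = 0.759, against 0.826 to 0.938 in the other 17 libraries). A wrong label and a poor library cannot be told apart here, so the SUM149PT siCtrl values carry this doubt. MCM6 in it (2004 normalized counts) lay above the siASAP1 libraries, as in the other siCtrl libraries. FN1 (its strongest probe, 753), CDH1 (114), VIM (its stronger probe, 1994) and KRT17 (647) also lay outside the siASAP1 range, on the siCtrl side. EPCAM (20396), GMNN (125), MCM3 (4000), MCM4 (106), MCM5 (135), MCM10 (213) and POLD2 (31.9) lay within the siASAP1 range, and GINS3 (42.8) lay below it. These genes are examples, and a count over all genes was not made. Depth in that library was 7.74 M reads, against 4.63 M to 4.89 M in the rest of the line. The cause was not tested. The main SUM149PT results are given with and without that library. Over the 18 libraries the ASAP1 Log2 FC was -0.96 (exact permutation test within cell lines, two-sided, p = 0.0152), with an adjusted p of 0.127 by limma. Without that library it was -1.20 (SE 0.25, adjusted p = 0.0187 by limma).

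MCM6 was the only member called over the 18 libraries. This subunit of the MCM ring had 1303, 941 and 1063 normalized counts in the siCtrl libraries of BT549 and 625, 453 and 389.6 in its siASAP1 libraries. In Hs578T the siCtrl libraries had 666, 478 and 599 and the siASAP1 libraries had 257, 417 and 219. For SUM149PT the counts were 1067, 2004 and 724 with siCtrl and 339, 229 and 342 with siASAP1. Within each line, all 3 siASAP1 libraries had less MCM6 than any siCtrl library, and the mean level after siASAP1 was 44.4%, 51.3% and 24.0% of that after siCtrl in BT549, Hs578T and SUM149PT. The MCM6 Log2 FC over the 18 libraries was -1.38 (SE 0.22, limma adjusted p = 0.00348 over 10475 probes, lower in 9 of 9 siASAP1 libraries than in any siCtrl library of the same line). It was -1.23 (adjusted p = 0.00362) without the library labelled siCtrl 2 of SUM149PT. Of all probes tested, 1.06% were called lower and 0.678% higher by this rule (adjusted p under 0.05), and MCM6 ranked 18 by p.

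The exact permutation test of MCM6 over the 18 libraries, with labels exchanged within cell lines, gave p = 0.00025 (two-sided), the smallest that its 8000 arrangements allow. Within a single line the same exact test, of 3 libraries against 3, cannot go below p = 0.1, which MCM6 reached in each. The limma Log2 FC was -1.19 in BT549 (SE 0.36, unadjusted p = 0.00765), -1.005 in Hs578T (SE 0.33, unadjusted p = 0.0121) and -1.95 in SUM149PT (SE 0.48, unadjusted p = 0.0035; -1.56 without the library labelled siCtrl 2), and none of these had an adjusted p under 0.05 within its line. The effect did not differ detectably between lines (interaction F test of limma, adjusted p = 0.965). The Hs578T value lay at the limit of 1, so the call there was lost when the siASAP1 replicate 1 or 3, or the siCtrl replicate 1 or 3, was left out, and also under scaling by library totals and with voom weights. The study had named MCM6 from these same libraries, so its call here is not independent evidence.

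**Figure D1:**
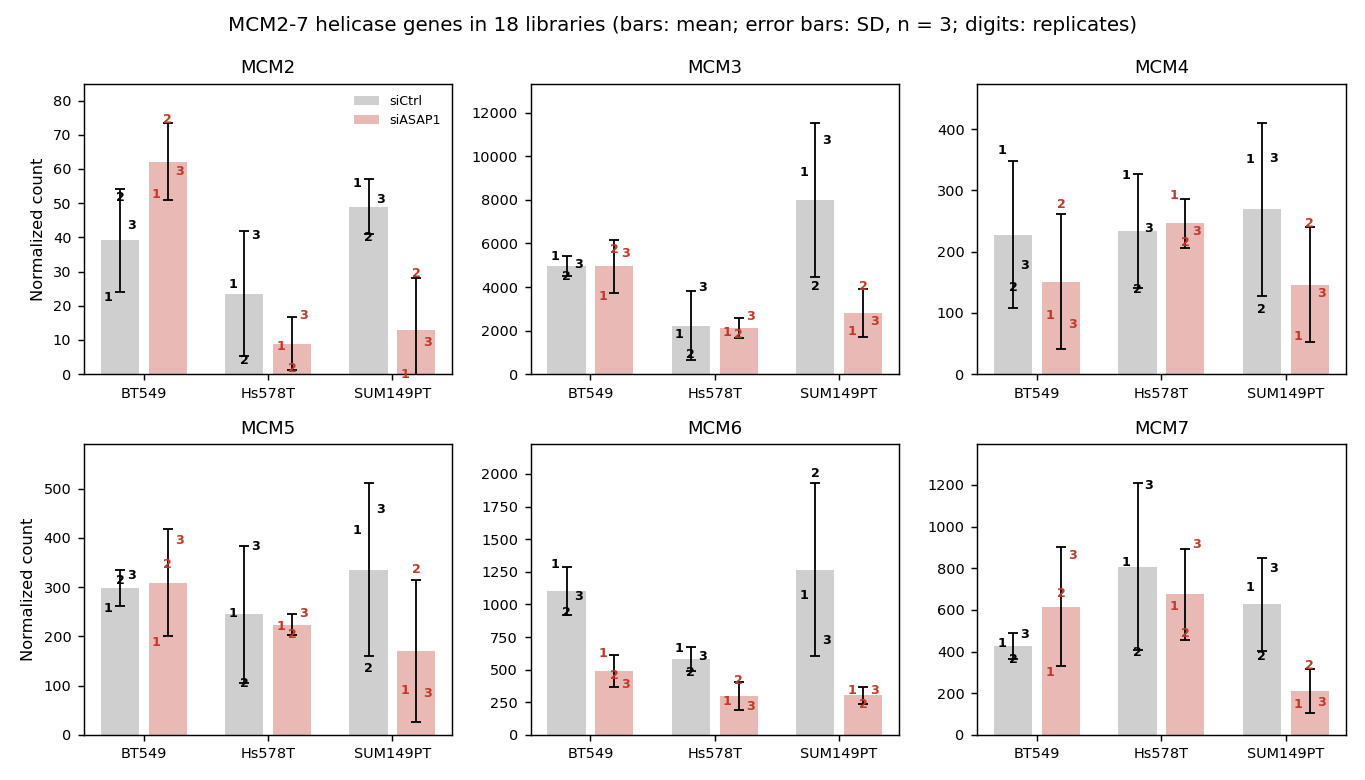
Normalized counts (y axis, linear, separate scale for each gene) of MCM2 to MCM7 in BT549, Hs578T and SUM149PT after siCtrl (grey) and siASAP1 (red); bars are means, error bars are SD with n = 3, and digits mark the replicates. MCM6 was lower in every siASAP1 library of all 3 lines, while the other MCM genes overlapped between treatments in at least 1 line.

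The other subunits of the ring were not called over the 18 libraries. MCM3 had 5415, 4489 and 5023 normalized counts after siCtrl and 3564, 5731 and 5533 after siASAP1 in BT549. The Hs578T values were 1806, 884 and 3986 after siCtrl and 1893, 1832 and 2656 after siASAP1. In SUM149PT it had 9259, 4000.4 and 10749.9 after siCtrl and 1947, 4029 and 2401 after siASAP1. MCM3 thus overlapped between treatments in BT549 and Hs578T, and in SUM149PT only the library labelled siCtrl 2 fell within the siASAP1 range. Its Log2 FC was -0.04 (SE 0.32) in BT549, 0.18 (SE 0.47) in Hs578T and -1.47 (SE 0.49, unadjusted p = 0.0175 by limma) in SUM149PT, where it was -1.91 without that library.

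MCM7 had 440.5, 359.7 and 481 normalized counts after siCtrl and 301, 681 and 861 after siASAP1 in BT549. For Hs578T the counts were 826, 396 and 1197 with siCtrl and 618, 489 and 916 with siASAP1. In SUM149PT the siCtrl libraries had 705, 376 and 798 and the siASAP1 libraries had 144, 333 and 156. MCM7 was therefore lower in every siASAP1 library of SUM149PT and overlapped between treatments in the other lines. The Log2 FC in SUM149PT was -1.60 (SE 0.51, unadjusted p = 0.0142 by limma), and -1.93 without the library labelled siCtrl 2.

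MCM5 had 256, 314 and 324 normalized counts after siCtrl and 188, 346 and 394 after siASAP1 in BT549. In Hs578T it had 246, 105 and 383 after siCtrl and 219.8, 204 and 246 after siASAP1. The SUM149PT values were 415, 135 and 457 after siCtrl and 90.0, 336 and 84.1 after siASAP1. MCM5 overlapped between treatments in every line, and its Log2 FC of -1.10 in SUM149PT (SE 0.72) did not pass the limits. Without the library labelled siCtrl 2 it was -1.66 (unadjusted p = 0.0286 by limma) and passed them.

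MCM4 had 366, 141 and 177 normalized counts after siCtrl and 96.0, 278 and 80.3 after siASAP1 in BT549. In Hs578T the siCtrl libraries had 324, 138 and 238 and the siASAP1 libraries had 291, 215 and 232. For SUM149PT the counts were 350.4, 106 and 352 with siCtrl and 60.9, 246 and 131 with siASAP1. MCM4 overlapped in every line, with a Log2 FC over the 18 libraries of -0.48 (SE 0.35, adjusted p = 0.545 by limma). In SUM149PT it was -0.90 with the library labelled siCtrl 2 and -1.48 without it (unadjusted p = 0.0374 by limma).

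MCM2 was read at low depth by its probe, with 0 to 82 reads per library. It had 22.5, 51.6 and 43.5 normalized counts after siCtrl and 52.4, 74.6 and 59.3 after siASAP1 in BT549. The Hs578T values were 26.2, 4.08 and 40.4 after siCtrl and 7.93, 1.73 and 17.1 after siASAP1. In SUM149PT it had 55.8, 40.1 and 51.2 after siCtrl and 0, 29.5 and 9.20 after siASAP1. The siASAP1 libraries lay above the siCtrl libraries in BT549 and below them in SUM149PT, and neither difference passed the limits (unadjusted p = 0.212 and 0.0541 by limma). Over the 18 libraries its Log2 FC of -1.13 had an SE of 0.67 (adjusted p = 0.437 by limma), so it could not be told from 0 or from the value of MCM6.

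The 300-base promoter windows of the ring genes (250 bases before to 50 after the RefSeq start, build GRCh38.p14) are shown because these genes are the ones in which MCM6 is set against its partners. Windows were matched by symbol for 45 of the 51 genes, and not for MCM4, MCM5, GINS4, POLD3, RPA2 and RPA3. Capitals mark matches, on either strand, to 4 words of 8 bases of the E2F type, TTTCCCGC, TTTCGCGC, TTTGCCGC and TTTGGCGC, where overlapping matches make a longer run.
MCM6, chr2:135876394-135876693, minus strand: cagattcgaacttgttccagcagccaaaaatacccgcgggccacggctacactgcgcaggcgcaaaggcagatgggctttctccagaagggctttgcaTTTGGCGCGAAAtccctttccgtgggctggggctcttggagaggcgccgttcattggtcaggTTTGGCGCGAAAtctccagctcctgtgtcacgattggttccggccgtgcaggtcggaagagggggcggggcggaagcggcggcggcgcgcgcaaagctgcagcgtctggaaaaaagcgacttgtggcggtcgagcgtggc
MCM2, chr3:127598161-127598460, plus strand: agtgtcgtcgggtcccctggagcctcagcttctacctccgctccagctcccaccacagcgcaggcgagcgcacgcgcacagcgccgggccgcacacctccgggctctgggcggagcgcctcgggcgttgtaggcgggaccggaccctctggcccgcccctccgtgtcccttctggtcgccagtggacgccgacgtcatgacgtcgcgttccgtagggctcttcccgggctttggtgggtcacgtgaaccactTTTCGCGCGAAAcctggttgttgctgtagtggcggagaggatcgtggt
MCM3, chr6:52284693-52284992, minus strand: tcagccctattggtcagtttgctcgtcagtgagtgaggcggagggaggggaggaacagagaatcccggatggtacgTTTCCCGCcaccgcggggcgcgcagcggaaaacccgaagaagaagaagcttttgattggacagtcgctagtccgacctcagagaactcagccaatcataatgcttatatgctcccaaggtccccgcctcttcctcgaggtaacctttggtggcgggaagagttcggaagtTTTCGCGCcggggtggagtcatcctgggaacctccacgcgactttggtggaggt
MCM7, chr7:100101348-100101647, minus strand: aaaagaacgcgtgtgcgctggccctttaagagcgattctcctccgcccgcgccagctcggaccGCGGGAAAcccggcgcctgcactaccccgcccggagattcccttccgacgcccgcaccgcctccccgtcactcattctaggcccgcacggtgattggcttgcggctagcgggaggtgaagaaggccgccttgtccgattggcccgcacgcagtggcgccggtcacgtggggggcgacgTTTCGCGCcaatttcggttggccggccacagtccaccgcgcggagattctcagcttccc

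The MCM6 window held 4 matches, in 2 copies of the 12-base run TTTGGCGCGAAA, whose first bases lay 152 and 90 bases before the start. MCM2 held 2 overlapping matches in a run of 12 bases after the start, MCM3 held matches that began 174 and 4 bases before the start, and MCM7 held matches that began 187 and 9 bases before it. A match was found in 19 of the 45 member windows (42.2%) and in 1164 of 35116 promoters of all genes (3.31%). At least 2 matches were found in 0.145% of all promoters, among them these 4 windows, and the MCM6 window was the only one of the 35116 with 4. All promoters had a lower median GC content than the members (58.67% against 65.67%), and the part of GC content in these shares was not tested. The shorter word CCAAT was found in 27 of the 45 member windows (60.0%) and in 34.6% of all promoters. In the origin recognition genes 1 of 6 windows held an E2F-type word, that of ORC3. A match is a string of letters in the window, and binding was not measured.

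MCM6 was next set against the other MCM, ORC, GINS, polymerase and primase genes in the same libraries, by a fit of the log2 difference between MCM6 and each other probe over the whole table. Of 29 such genes, 24 passed the filter on low counts. The MCM6 Log2 FC was the lower in 24 of 24, and the difference had an adjusted p under 0.05 for 15 (62.5%). Over all 10474 other probes tested this share was 73.8%, so the replication genes stood no further from MCM6 than probes in general. MCM6 ranked 152 from the lowest Log2 FC among 10475 probes, so a value below that of other genes was largely given beforehand. The study had named MCM6 from these same libraries, and the intervals and p-values of its differences carry that selection. Against its partners in the ring, the MCM6 Log2 FC was lower by -1.03 than that of MCM5 (95% interval -1.92 to -0.14, adjusted p = 0.0363 by limma), by -0.94 than that of MCM3 (-1.71 to -0.17, adjusted p = 0.0283) and by -0.93 than that of MCM7 (-1.74 to -0.11, adjusted p = 0.039). Against MCM4 the difference was -0.90 (-1.78 to -0.02, adjusted p = 0.0601), and against MCM2 it was -0.25 (-1.68 to 1.18, adjusted p = 0.733).

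The differences from MCM3, MCM5 and MCM7 were lost without the library labelled siCtrl 2 of SUM149PT, where they were -0.73 (adjusted p = 0.0572), -0.77 (adjusted p = 0.0796) and -0.76 (adjusted p = 0.0783). All 3 were also lost when siASAP1 replicate 2 of SUM149PT, siASAP1 replicate 3 of BT549 or Hs578T, or siCtrl replicate 1 or 2 of Hs578T was left out. Those from MCM5 and MCM7 were lost without siASAP1 replicate 2 or siCtrl replicate 1 of BT549 or siASAP1 replicate 1 of Hs578T, and that from MCM7 without siCtrl replicate 2 or 3 of BT549. The difference from MCM4 passed when siASAP1 replicate 1 or siCtrl replicate 3 of SUM149PT, or siASAP1 or siCtrl replicate 1 of BT549, was left out. The largest differences were from ORC4 (-1.90, 95% interval -2.55 to -1.25), ORC3 (-1.74, -2.73 to -0.75) and POLA2 (-1.51, -2.09 to -0.92). No difference was established from GINS2 (-0.32, -1.19 to 0.55), POLA1 (-0.39, -1.51 to 0.73), POLE3 (-0.62, -1.40 to 0.15), ORC5, GINS1, POLD2 or PRIM1. For 10 genes (MCM10, ORC3, ORC4, GINS3, GINS4, POLA2, PRIM2, POLD1, POLD3 and POLE4) the difference kept an adjusted p under 0.05 in the main fit and in all 25 alternatives run. In any single setting 66.2% to 83.6% of all other probes had such a difference. The share of all probes that kept it in every setting was not computed, so these genes are not set apart by it.

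**Figure D2:**
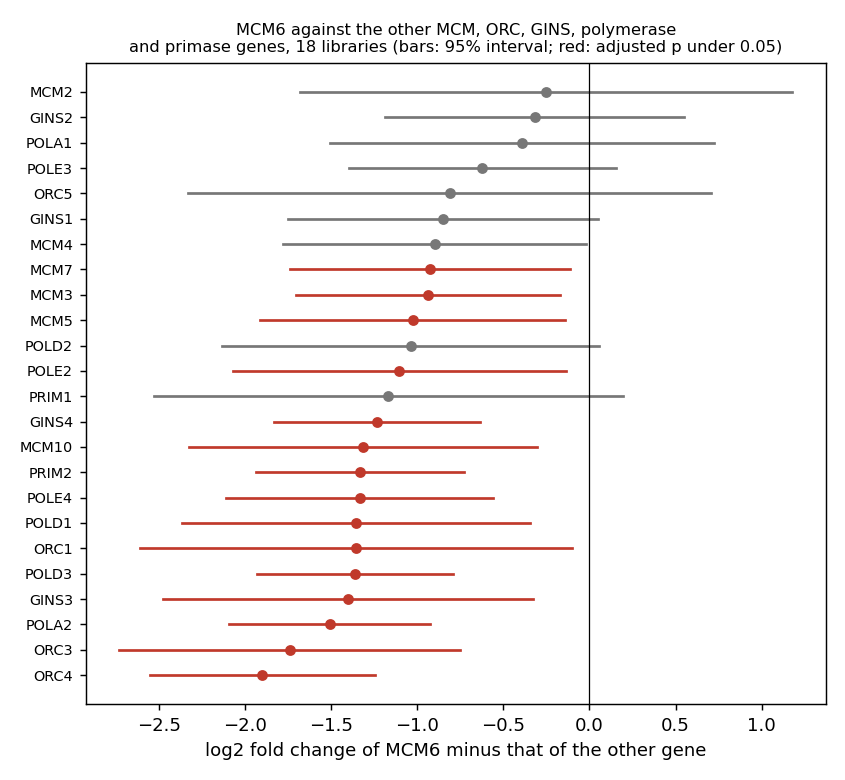
Difference between the Log2 FC of MCM6 and that of each of 24 other genes over 18 libraries (x axis, log2 scale; negative means that MCM6 was lowered more), with 95% intervals as bars; red marks an adjusted p under 0.05. All 24 points lie left of 0, from -1.90 for ORC4 to -0.25 for MCM2, and 15 are red.

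Within groups of replicates the ring genes did not move as a block. Each library's deviation from the mean of its own group of 3 was taken on the log2 scale, so that cell line and treatment cannot enter. Across the 18 libraries the deviations of MCM3, MCM5 and MCM7 varied together, with r = 0.901 for MCM3 and MCM5, 0.907 for MCM3 and MCM7 and 0.908 for MCM5 and MCM7. MCM2 and MCM4 followed them less closely (r between 0.525 and 0.669). Between MCM6 and its partners r was negative, with r = -0.465 with MCM3, -0.59 with MCM5, -0.572 with MCM7, -0.352 with MCM2 and -0.343 with MCM4. Without the library labelled siCtrl 2 of SUM149PT, a setting chosen after the values were seen, MCM6 had r = -0.214 with MCM3, -0.388 with MCM5, -0.464 with MCM7, -0.404 with MCM2 and -0.0235 with MCM4 over 17 libraries. That library thus carried most of the value with MCM4 and much of that with MCM3, while MCM3, MCM5 and MCM7 kept r between 0.867 and 0.9 among themselves. These are descriptions without a test, and the points share libraries, size factors and group means. In the library labelled siCtrl 2 of SUM149PT, MCM6 was 0.79 above its group mean while MCM3, MCM5 and MCM7 were at -0.88, -1.12 and -0.66. In siASAP1 replicate 1 of BT549, MCM6 was 0.38 above and MCM7 was at -0.90. In siCtrl replicate 2 of Hs578T all of these went the same way, with MCM6 at -0.27, MCM3 at -1.07, MCM5 at -1.02 and MCM7 at -0.88.

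Other members lay on either side. The deviations most like those of MCM6 were of RFC5 (r = 0.784), a subunit of the clamp loader, WDHD1 (0.727) and TIPIN (0.723) at the fork, ORC5 (0.702) and DBF4 (0.685). The least like were POLD2 (-0.778) and POLE4 (-0.77), small polymerase subunits, GMNN (-0.696), GINS3 (-0.671) and CDT1 (-0.669). The median over the 43 other members tested was -0.277, with 24 negative. Over all other probes it was 0.022, with 5118 of 10474 negative. RFC5, WDHD1 and DBF4 peaked, as MCM6 did, in the library labelled siCtrl 2 of SUM149PT (DBF4 had 3729 normalized counts there, against 270.3 and 363 in the other siCtrl libraries). Without that library the most like were ORC5 (0.643), TIPIN (0.62), RFC5 (0.603), RFC3 (0.51) and WDHD1 (0.508). The least like were then CDT1 (-0.68), POLD2 (-0.653) and RFC1 (-0.619). The median of the members was -0.124 with 24 negative, against -0.004 with 5279 of 10474 negative over all other probes.

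**Figure D3:**
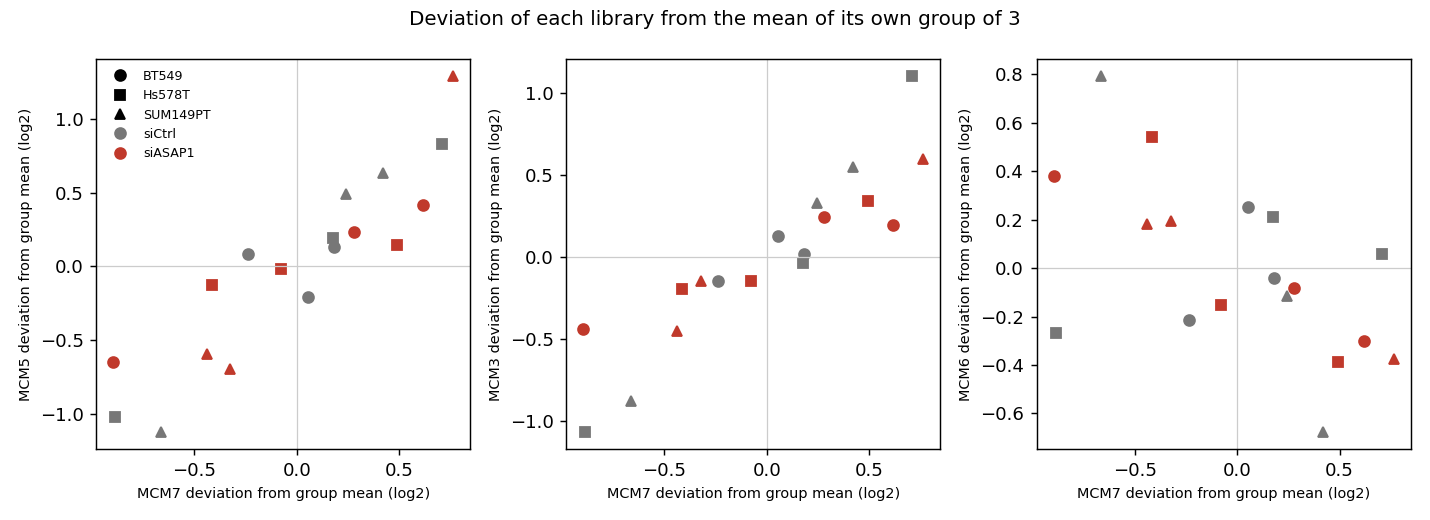
Deviation of each of the 18 libraries from the mean of its own group (log2 scale) for MCM7 (x axis) against MCM5, MCM3 and MCM6 (y axes); symbols give the cell line and colours the treatment. MCM5 and MCM3 rise with MCM7 (r = 0.908 and 0.907), while MCM6 declines (r = -0.572, and -0.464 without the library labelled siCtrl 2 of SUM149PT).

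Taken as a list, 44 of the 52 probes passed the filter of a mean normalized count of 10 over the 18 libraries. Those left out were ORC2, ORC6, MCM8, POLD4, POLE, RFC2, RPA1 and the weaker ORC4 probe. RPA1 had 0 reads in all 18 libraries and RFC2 had at most 3 reads, in 1 library, so these probes say nothing of genes that every dividing cell uses. MCM6 was 1 of 44 called over the 18 libraries and 0 were called higher. At an unadjusted p under 0.05 there were 5 (11.4%, against 15.8% of all probes). The median Log2 FC of the 44 was -0.22, with 36 below 0, while that of all probes was 0.02, with 48.3% below 0. Under scaling by library totals the median of all probes moved to 0.15 and that of the members to -0.12, with 80 probes called lower and 122 higher (111 and 71 otherwise), and MCM6 kept a Log2 FC of -1.25. Of 28 other replication genes 22 were tested, 0 were called and their median was -0.25, and of 14 mitotic genes 12 were tested, 0 were called and their median was -0.27. At an unadjusted p under 0.05 by limma there were 4 and 2 of them. By line, 0 of them were called in BT549 and Hs578T, and in SUM149PT 2 of 23 and 1 of 12 were called lower by the limits for single lines, NASP, ASF1B and AURKB, which are named here after their values were seen.

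**Figure D4:**
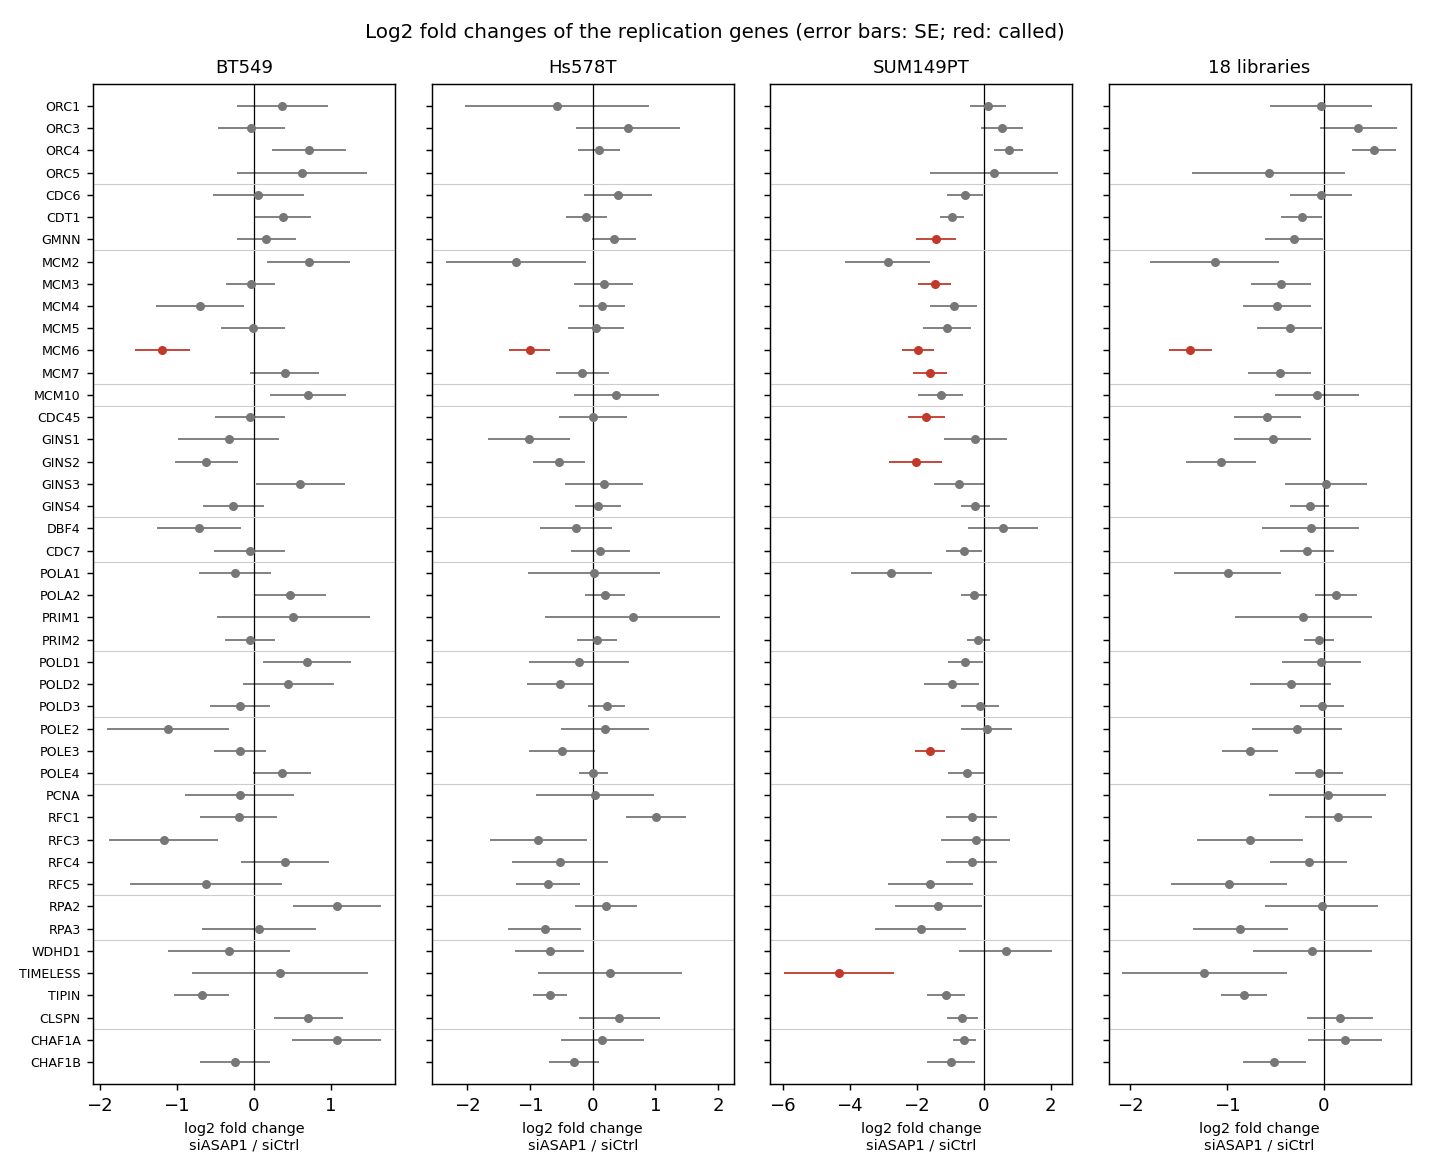
Log2 FC (x axis, separate scale in each panel) of the 44 probes tested over 18 libraries, ordered by role, in BT549, Hs578T, SUM149PT and over the 18 libraries, with a blank where a probe was below the filter of a line; error bars are SE and red marks a call by the limits given in the text. MCM6 is red in all 4 panels, and 7 further genes are red in SUM149PT alone, where the difference between lines was not established for any of them.

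By line, a member was called at the limits the study used, which were a Log2 FC beyond 1 in either direction together with p under 0.05 before adjustment. In BT549 1 of 44 was called lower, MCM6, where 3.69% of all probes were lower and 3.28% higher, and the median Log2 FC of the members was -0.02. In Hs578T 1 of 43 was called lower, again MCM6, where 1.44% of all probes were lower and 1.34% higher, with a median of 0.04. Scaled by library totals, 83 probes were lower and 196 higher in Hs578T, in place of 137 and 127. In SUM149PT 8 of 44 were called lower (MCM3, MCM6, MCM7, CDC45, GINS2, GMNN, POLE3 and TIMELESS) and 0 higher, where 4.29% of all probes were lower and 5.27% higher. The SUM149PT median was -0.68 with 36 of 44 below 0, against 0.09 and 46.5% for all probes. The other replication genes (median -0.59, 19 of 23 below 0) and the mitotic genes (median -0.82, 11 of 12 below 0) also lay mostly below 0 in SUM149PT, and the lists were not tested against each other. Without the library labelled siCtrl 2 the medians were -0.71 for the members, -0.63 for the other replication genes and -0.60 for the mitotic genes, with 32 of 44, 17 of 22 and 8 of 12 below 0. None of these calls had an adjusted p under 0.05 (smallest 0.334, for MCM6). In SUM149PT the siASAP1 libraries lay below all siCtrl libraries for 11 of 44 members, and for 8.41% of all probes. The same held for 4 of 43 in Hs578T (5.78% of all probes) and 1 of 44 in BT549 (6.51%). In the other direction, siASAP1 above all siCtrl, there was 1 member, MCM2, in BT549 (7.35% of all probes), 0 in Hs578T (6.31%) and 0 in SUM149PT (8.87%).

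The SUM149PT count turned on single libraries. Without the library labelled siCtrl 2 it was 15 lower and 1 higher, DBF4, where 8.94% of all probes were lower and 14.4% higher. POLE3 then had an adjusted p of 0.0489 by limma. The 15 were the 8 above and CDT1, MCM4, MCM5, MCM10, GINS3, POLD2 and POLE4. Without siCtrl replicate 1 or 3 it was 2, MCM6 and POLE3, where 1.94% and 2.31% of all probes were lower. Without siASAP1 replicates 1, 2 and 3 it was 3, 11 and 4, where 2.88%, 6.199% and 2.57% of all probes were lower. Fitted together with the other lines in a single fit of 18 libraries it was 12, with RPA3, TIPIN, POLA1 and MCM2 added, where 7.47% of all probes were lower. Under scaling by library totals it was 6, with 267 probes lower and 761 higher in all (432 and 531 otherwise) and the median of all probes at 0.30. In BT549, leaving out siASAP1 replicate 1 gave 3 lower (RFC3, DBF4 and MCM6) and 4 higher (MCM10, GINS3, CHAF1A and CLSPN). Of all probes, 13.2% were then lower and 9.28% higher. No member had an interaction of cell line and siASAP1 at an adjusted p under 0.05 (0.00955% of all probes did). At an unadjusted p under 0.05 there were 4, CDT1, GMNN, MCM7 and TIMELESS, with a smallest adjusted p of 0.646, so a difference of SUM149PT from the other lines was not established for any member.

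Among the origin recognition genes, no member was called in any line. ORC4, an ATPase subunit of the complex, had the smallest p of the group. Its stronger probe had 98.6, 258 and 262 normalized counts after siCtrl and 396, 254 and 301 after siASAP1 in BT549. For Hs578T the counts were 164, 133 and 103 with siCtrl and 159, 124 and 141 with siASAP1, and in SUM149PT it had 350.4, 520.2 and 272 after siCtrl and 683, 451 and 752 after siASAP1. The groups overlapped in every line. The Log2 FC over the 18 libraries was 0.52 (SE 0.23, adjusted p = 0.273 by limma), and in SUM149PT the 4 tested origin recognition probes had values between 0.12 and 0.74, all above 0, unlike most of the members.

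Of the licensing factors, CDT1 had 673, 878 and 1026 normalized counts after siCtrl and 812, 1186 and 1382 after siASAP1 in BT549. In Hs578T it had 294, 235 and 382 after siCtrl and 283, 213 and 352 after siASAP1. In SUM149PT the siCtrl libraries had 1705, 1455 and 2052 and the siASAP1 libraries had 882, 1086 and 725. The SUM149PT groups did not overlap, and the Log2 FC of -0.96 (SE 0.36, unadjusted p = 0.0294 by limma) missed the limit of 1. Without the library labelled siCtrl 2 the CDT1 Log2 FC was -1.08 (unadjusted p = 0.0118 by limma) and passed it. Geminin had 395, 125 and 412 after siCtrl and 78.1, 138 and 94.6 after siASAP1 in SUM149PT, with a Log2 FC of -1.43 (SE 0.59, unadjusted p = 0.042 by limma). The library labelled siCtrl 2 lay among the siASAP1 libraries, and without it the GMNN Log2 FC was -1.99.

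MCM10 had 193, 216 and 278 normalized counts after siCtrl and 176, 487 and 593 after siASAP1 in BT549. In Hs578T the siCtrl libraries had 280.2, 53.0 and 330.0 and the siASAP1 libraries had 177, 146 and 421. The SUM149PT values were 745, 213 and 948 after siCtrl and 120.4, 309 and 279 after siASAP1. The groups overlapped in each line, and the Log2 FC over the 18 libraries was -0.07 (SE 0.43). By line it was 0.71 (SE 0.50) in BT549, 0.38 (SE 0.68) in Hs578T and -1.28 (SE 0.67) in SUM149PT. Without the library labelled siCtrl 2 the SUM149PT value was -1.94 (unadjusted p = 0.00368 by limma).

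Among CDC45 and the GINS complex, GINS2 had the smallest p over the 18 libraries. It had 439, 332 and 278 normalized counts after siCtrl and 167, 229 and 294 after siASAP1 in BT549. The Hs578T values were 181, 70.2 and 113 after siCtrl and 87.3, 75.2 and 70.4 after siASAP1. For SUM149PT the counts were 259, 118 and 264 with siCtrl and 14.6, 105 and 71.0 with siASAP1. Only the SUM149PT groups did not overlap. The Log2 FC was -1.06 over the 18 libraries (SE 0.36, adjusted p = 0.137 by limma) and -2.03 in SUM149PT (SE 0.79, unadjusted p = 0.033; -2.42 without the library labelled siCtrl 2). CDC45 had 555, 177 and 416 after siCtrl and 82.0, 151 and 92.0 after siASAP1 in SUM149PT, a Log2 FC of -1.71 (SE 0.56; -2.19 without that library), and its Log2 FC was -0.05 in BT549 and 0.01 in Hs578T. GINS1, GINS3 and GINS4 were not called in any line with all libraries. Without the library labelled siCtrl 2, the GINS3 Log2 FC in SUM149PT was -1.52 (unadjusted p = 0.0232 by limma) and passed the limits.

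The kinase gene CDC7 and its activator DBF4 were not called in any line with all libraries. In SUM149PT the DBF4 Log2 FC was 0.57, and 1.76 (unadjusted p = 0.0296 by limma) without the library labelled siCtrl 2. The study described its siCtrl pool of kinase siRNAs as leaving single kinase genes without significant change. Whether CDC7 or the mitotic kinases are targets of that pool is not stated in the sources used here. CDC7 had 168, 90.5 and 148 normalized counts after siCtrl and 140.4, 90.6 and 159 after siASAP1 in BT549. For Hs578T the counts were 143, 175 and 57.1 with siCtrl and 167, 114 and 98.1 with siASAP1, and in SUM149PT it had 143, 149 and 123 after siCtrl and 105, 145 and 49.9 after siASAP1. The groups overlapped throughout, with a Log2 FC over the 18 libraries of -0.17 (SE 0.28).

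No gene of polymerase alpha and primase was called. POLA1, the catalytic subunit, had 76.1, 81.1 and 49.8 normalized counts after siCtrl and 56.0, 55.7 and 59.3 after siASAP1 in BT549. In Hs578T it had 15.2, 4.90 and 7.88 after siCtrl and 6.80, 3.47 and 24.5 after siASAP1, and in SUM149PT it had 41.5, 38.3 and 22.4 after siCtrl and 7.94, 0 and 13.1 after siASAP1. The SUM149PT groups did not overlap but rested on few reads (unadjusted p = 0.0532 by limma). PRIM2, a primase subunit, had the smallest SE of the members tested, with a Log2 FC over the 18 libraries of -0.05 (SE 0.16).

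Of polymerase delta no gene was called. POLD2, a regulatory subunit, had 39.9, 94.95 and 95.4 normalized counts after siCtrl and 61.3, 75.5 and 203 after siASAP1 in BT549. In Hs578T the siCtrl libraries had 160.3, 88.9 and 303 and the siASAP1 libraries had 102, 72.3 and 198, and in SUM149PT it had 123, 31.9 and 209 after siCtrl and 34.4, 99.99 and 31.5 after siASAP1. The groups overlapped in every line, in SUM149PT only through the library labelled siCtrl 2. The POLD2 Log2 FC in SUM149PT was -0.96 with that library. Without it the value was -1.73 (unadjusted p = 0.0307 by limma) and passed the limits.

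Of polymerase epsilon, POLE3, a small histone-fold subunit, had 1160.5, 1204 and 1315 normalized counts after siCtrl and 848, 1121 and 1329.5 after siASAP1 in BT549. The Hs578T values were 508, 308 and 1277 after siCtrl and 394, 263 and 685 after siASAP1. In SUM149PT it had 2769, 1575 and 3763 after siCtrl and 714, 1117 and 735 after siASAP1. The SUM149PT siASAP1 libraries were all below the siCtrl libraries. The Log2 FC there was -1.60 (SE 0.44, unadjusted p = 0.00654 by limma; -1.95 without the library labelled siCtrl 2), and POLE3 and MCM6 were the only members called in SUM149PT with any 1 of its libraries left out. Over the 18 libraries the POLE3 Log2 FC was -0.76 (SE 0.29, adjusted p = 0.194).

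Of the clamp and its loader no gene was called. RFC5 had 29.9, 30.8 and 23.1 normalized counts after siCtrl and 67.6, 24.5 and 2.74 after siASAP1 in BT549. For Hs578T the counts were 59.1, 45.7 and 42.4 with siCtrl and 45.3, 32.4 and 17.1 with siASAP1, and in SUM149PT it had 21.5, 363 and 12.8 after siCtrl and 29.1, 7.69 and 14.5 after siASAP1. A single library, labelled siCtrl 2, carried the high SUM149PT value, and the SUM149PT Log2 FC was -1.60 with it and -0.14 without it. The PCNA probe read few molecules (mean 16.3 normalized counts), with a Log2 FC of 0.04 (SE 0.61), which leaves a change of either sign possible.

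RPA3, the small subunit of RPA, had 25.0, 13.8 and 16.8 normalized counts after siCtrl and 12.4, 34.9 and 15.5 after siASAP1 in BT549. In Hs578T it had 45.6, 22.8 and 24.6 after siCtrl and 18.1, 20.8 and 12.8 after siASAP1, and in SUM149PT it had 14.3, 24.6 and 14.4 after siCtrl and 0, 5.13 and 18.4 after siASAP1. Only the Hs578T groups did not overlap, and the Log2 FC over the 18 libraries was -0.86 (SE 0.49, adjusted p = 0.418 by limma).

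Among the fork protection genes, TIPIN had the smallest p. It had 2639, 2792 and 2973 normalized counts after siCtrl and 2732, 1349.9 and 1462 after siASAP1 in BT549. In Hs578T the siCtrl libraries had 1332, 1303 and 2012 and the siASAP1 libraries had 973, 1075 and 803. In SUM149PT the siCtrl libraries had 2759, 5819 and 2682 and the siASAP1 libraries had 2541, 756 and 2162. TIPIN did not overlap between treatments in Hs578T and SUM149PT, and in BT549 siASAP1 replicate 1 lay within the siCtrl range. Its Log2 FC over the 18 libraries was -0.83 (SE 0.24, adjusted p = 0.0796 by limma), and without that BT549 library it was -0.93 (adjusted p = 0.0487). Without the library labelled siCtrl 2 of SUM149PT it was -0.70 (adjusted p = 0.123 by limma). Its partner TIMELESS was read at 1, 0 and 0 reads after siASAP1 and at 50, 3 and 42 after siCtrl in SUM149PT (unadjusted p = 0.0303 by limma), where the size of a fold cannot be given with so few reads. In BT549 and Hs578T the TIMELESS groups overlapped.

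**Figure D5:**
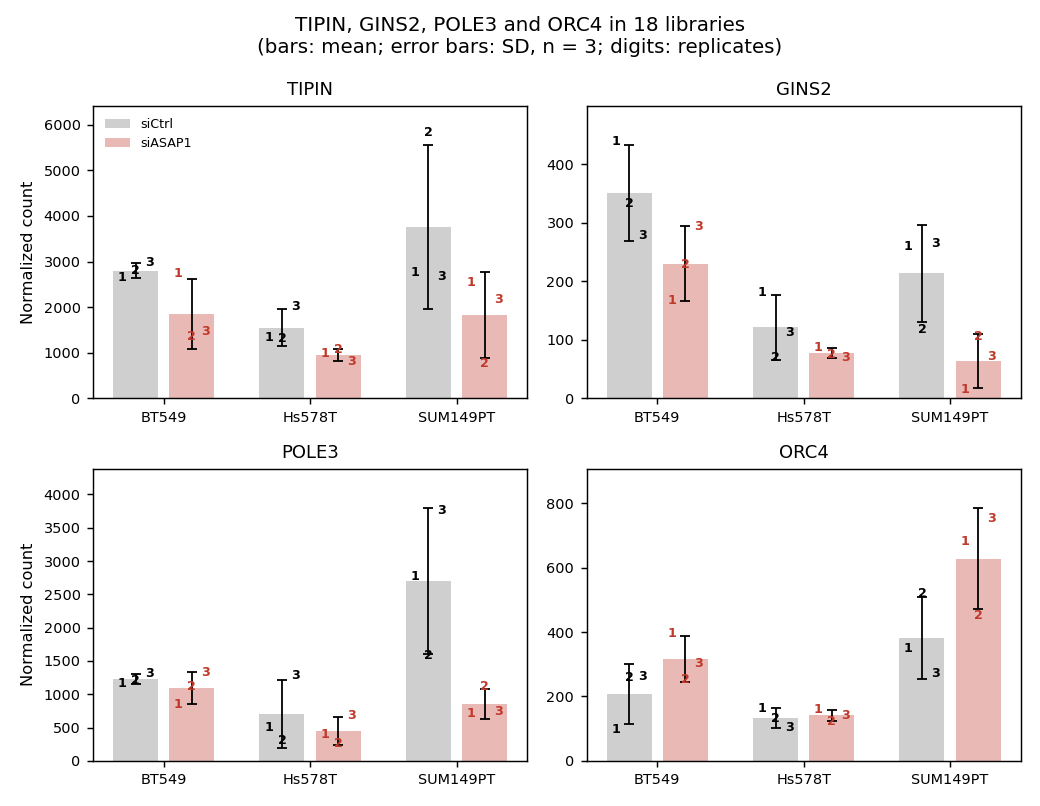
Normalized counts (y axis, linear, separate scale for each gene) of TIPIN, GINS2, POLE3 and ORC4 after siCtrl (grey) and siASAP1 (red) in the 3 lines; bars are means, error bars are SD with n = 3, and digits mark the replicates. The red and grey libraries separate in SUM149PT for TIPIN, GINS2 and POLE3, and overlap in every line for ORC4.

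Of the chromatin assembly genes, CHAF1B had 309, 804 and 510.0 normalized counts after siCtrl and 619, 324 and 379 after siASAP1 in BT549. The Hs578T values were 217, 132 and 291 after siCtrl and 130.3, 146 and 234 after siASAP1, and in SUM149PT it had 225, 1249 and 313 after siCtrl and 299, 123 and 309 after siASAP1. The groups overlapped in every line, and neither CHAF1A nor CHAF1B was called.

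The lines also differed in the members without ASAP1 silencing. Over the 9 siCtrl libraries 44 members were tested, and a call needed an adjusted p under 0.05 with a Log2 FC beyond 1 in either direction. Against BT549, Hs578T had 3 members lower, CDT1 (-1.50), POLA1 (-2.86) and PRIM2 (-1.34), and 0 higher, where 13.8% of all probes differed in either direction. Against BT549, SUM149PT had POLA2 higher (1.41, SE 0.35) and GINS4 lower (-1.25, SE 0.36), where 18.2% of all probes differed. Against Hs578T, SUM149PT had 7 higher, ORC1 (2.64), CDT1 (2.53), CHAF1A (2.22), POLE3 (2.12), MCM3 (1.99), POLA2 (1.39) and TIPIN (1.21), and 0 lower, where 20.2% differed. In these fits the shares of members lay below those of all probes. Without the library labelled siCtrl 2 of SUM149PT the counts were 5, 7 and 10. The shares of all probes were not computed in that setting, so whether the members then lay below them is not known. MCM6 did not differ between lines by these limits (Log2 FC 1.01 between SUM149PT and Hs578T, adjusted p = 0.104 by limma).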

How the data were processed

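RNA of 18 libraries from 3 TNBC lines was measured by TempO-Seq. Per the labels, the authors used bcl2fastq, Bowtie and DESeq2. Genome build and versions are not given in the sources used here. The deposited values are log2 of the normalized count plus 1, with size factors from DESeq2 by the authors, and replicates were not pooled. Reads per probe were recovered as whole multiples of a step per library (100% of values within 0.02).

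Groups followed the submitters' labels. A probe entered a fit when its normalized count averaged 10 or more over the libraries fitted. Tests used limma 3.58.1 (lmFit, then eBayes with a trend) under R 4.3.3, per line on 6 libraries, over 18 libraries with the cell line as covariate, with an interaction term, and over 9 siCtrl libraries. The log2 difference of MCM6 and every other probe was fitted likewise. Adjustment was by Benjamini-Hochberg over every probe of a fit. Values in every library were given for MCM2 to MCM7, for members called over 18 libraries and for the member of each role with the smallest p. The members and lists were chosen with earlier results of these data known. The fits per line and over 18 libraries were tested on simulated reads, which held no outlying library. The other fits were not tested in this way. Promoters came from RefSeq windows (GRCh38.p14), and figures from Python 3.11.15 with matplotlib 3.10.9. Alternatives were TMM scaling, library totals, no filter, a minimum of 50, the replicate block, a single fit of 18 libraries, symbols summed, voom weights on recovered reads, adjusted calls and each library left out.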

Additional observations from a re-analysis of the deposited data

How the results depend on the processing

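MCM6 over the 18 libraries kept its direction and an adjusted p under 0.05 (limma) in every alternative, with a Log2 FC between -1.23 and -1.49 when single libraries were left out and an adjusted p of 0.0496 with the replicate block. The count over the 18 libraries was 1 to 2 members when single libraries were left out, and the count of genes with a Log2 FC above that of MCM6 (adjusted p under 0.05) was 10 to 16. Of all other probes, 68.0% to 75.2% had such a difference in those settings, so the count does not set the replication genes apart. Leaving out single libraries gave 1 to 3 lower and 0 to 4 higher members in BT549, 0 to 2 and 0 to 1 in Hs578T, and 2 to 15 and 0 to 1 in SUM149PT. The shares of all probes moved too. In BT549, 2.09% to 13.2% were lower and 1.36% to 9.28% higher. In Hs578T these were 0.915% to 3.37% and 0.695% to 3.30%, and in SUM149PT 1.94% to 8.94% and 2.29% to 14.4%. After siCtrl, leaving out single libraries gave 1 to 7 members for Hs578T against BT549, 0 to 7 for SUM149PT against BT549 and 1 to 10 for SUM149PT against Hs578T. The shares of all probes were not computed for these. In Hs578T the count of lower members was 0 with library totals, 0 with voom weights and 2 with no filter (ORC5 and MCM6). Of all probes, 0.883%, 1.05% and 0.734% were lower in these settings. In SUM149PT the count of lower members was 5 with no filter, where 2.08% of all probes were lower. With adjusted calls it was 0 in each of the 3 lines. With the replicate block the count was 2 lower in SUM149PT (POLE3 and MCM6), 1 higher in BT549 (CHAF1A) and 1 higher in Hs578T (RFC1). The matching shares of all probes were 1.55%, 2.74% and 2.24%. With the replicate block the calls over all probes were 20 lower and 14 higher in the 18 libraries (111 and 71 without it), and the count of genes set against MCM6 was 11. Of all other probes, 66.2% differed from MCM6 in that way under the block. The differences of MCM6 from MCM5 (adjusted p = 0.0611 by limma) and MCM7 (adjusted p = 0.056) were lost under the block, while that from MCM3 (adjusted p = 0.0428) was not. The cause of these shifts was not tested. Same-numbered libraries deviated together in Hs578T (mean r = 0.31) but not in BT549 (-0.148) or SUM149PT (-0.443). Deviations from means of 3 libraries cannot settle whether the numbers pair the samples, so results are given with and without the block. Low probes (MCM2, TIMELESS, PCNA, POLA1, RPA3) are limited by depth, and 8 probes could not be tested.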
